A study of Dicentrarchus labrax with 30 samples.

Results

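Head kidney transcriptomes of bold and shy European sea bass (Dicentrarchus labrax), a farmed marine fish, were compared in 10 of the 30 libraries of the series. The 10 were taken by their tissue label, and they comprise 5 libraries of bold fish and 5 of shy fish, each from 1 fish. The other 20 libraries are 10 of pituitary and 10 of whole brain. The bold fish were 2 females (bold 1 and bold 4) and 3 males (bold 2, bold 3 and bold 5). The shy fish were 3 females (shy 3, shy 4 and shy 5) and 2 males (shy 1 and shy 2). Risk-taking was tested 4 times over 7 months, and 10 fish at the extremes of the first 3 tests were kept. A bold fish left a sheltered area of its tank quickly, and a shy fish left it very late or not at all. All fish hatched in 9 tanks, were kept at 21 °C from 121 days after fertilization, and were sampled at an age of 478 days after fertilization, with no strain, genotype or drug named in the labels. The labels give neither the tank nor the sampling hour of a fish.

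The head kidney is the front part of the fish kidney. It is the main site where fish make blood cells, and in this respect it is compared with mammalian bone marrow. It also holds the interrenal cells, which make cortisol from cholesterol when the pituitary hormone ACTH binds their melanocortin receptor, and the chromaffin cells, which make adrenaline and noradrenaline. Cortisol acts through the glucocorticoid receptor, a transcription factor that raises the RNA of genes such as FKBP5, TSC22D3 and PER1.

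The head kidney libraries held 7953326 to 20309562 counts in bold fish (median 18927796) and 4667992 to 26837997 in shy fish (median 11960638). The totals did not differ beyond their spread (exact permutation test over all labelings of 5 against 5, two-sided, p = 0.627). Genes with at least 1 count numbered 19030 to 20408 in bold and 18436 to 20684 in shy libraries (exact permutation p = 0.381). The most abundant identifier made up 15.0% to 18.0% of a bold library and 11.4% to 22.7% of a shy library (exact permutation p = 0.317). It was the alpha globin HBAA1 in 8 libraries and DLAgn_00266690, which has no symbol, in bold 4 and bold 5. Red cell, neutrophil and interrenal genes were present in all 10 libraries. HBAA1 had at least 94509 CPM, the neutrophil myeloperoxidase MPX DLAgn_00085240 at least 1008 CPM, and STAR DLAgn_00115570, which carries cholesterol into the mitochondria of steroid-making cells, at least 116 CPM. CPM are read counts scaled to a common library size. Means have their SD over n = 5 libraries per group. Log2 changes are those of bold fish over shy fish in a fit with sex as a covariate, each with its standard error (SE). Apart from the fits of all 30 libraries, counts of genes are over these libraries, and the p-values set a change against the spread between fish.

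By edgeR's quasi-likelihood test, 1 of 15741 tested genes passed an adjusted p of 0.05, which is 0.00635% of them. It was DLAgn_00202850, which has no symbol in the files and to which no function is given here. Its levels were 40.4, 28.2, 42.6, 25.7 and 38.9 CPM in bold libraries 1 to 5, against 13.1, 8.81, 13.3, 11.0 and 13.7 CPM in shy libraries 1 to 5. The group means were 35.1 ± 7.67 CPM in bold libraries, against 12.0 ± 2.05 CPM in shy libraries (log2 change 1.56, SE 0.185, adjusted p 0.043). Every bold library lay above every shy one, in both sexes, with a change of 1.78 in males alone and 1.38 in females alone. The call was lost, with the direction kept, when 1 library was left out (all but bold 3, bold 4 and shy 3), at an adjusted p of up to 0.409, reached without bold 1. DESeq2 called 122 of 15416 genes (0.791%), 70 higher and 52 lower in bold fish, including HLF, SLC43A2, LPIN1, ADAM8A, IKZF2, PIK3R1, SSBP1, TUBA1C, PAWR, RPS27, SLC6A12 and DLAgn_00265390, each with the identifier given for it here.

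Among the other genes with the smallest p, the higher ones included transcription factors and enzymes of metabolism, and none of them passed by edgeR. HLF DLAgn_00059510, a transcription factor of the PAR bZIP family whose RNA follows the daily clock, had 27.9, 30.1, 29.3, 23.1 and 22.1 CPM in bold libraries, against 12.6, 13.9, 16.9, 15.1 and 13.2 CPM in shy libraries. No shy library reached the lowest bold one, and the log2 change was 0.89 (SE 0.131, adjusted p 0.094). SLC43A2 DLAgn_00028870, a transporter of large neutral amino acids, had 41.9, 42.0, 49.0, 44.0 and 38.3 CPM in bold and 27.7, 28.5, 27.5, 24.7 and 25.6 CPM in shy libraries (0.67, SE 0.0941, adjusted p 0.0772). The shy libraries lay close together and all below the bold ones. LPIN1 DLAgn_00156610, a phosphatidate phosphatase of triglyceride synthesis that also acts as a transcriptional coactivator, had 4.92, 5.20, 5.51, 3.79 and 5.18 CPM in bold and 0.916, 1.91, 2.62, 1.70 and 1.71 CPM in shy libraries (1.43, SE 0.256, adjusted p 0.177), again with no overlap. ADAM8A DLAgn_00105260, a membrane metalloprotease of leukocytes, had 154, 119.8, 182, 129.9 and 170.3 CPM in bold and 59.6, 80.8, 66.2, 96.6 and 75.3 CPM in shy libraries (0.99, adjusted p 0.177). The highest of the shy libraries, shy 4, stayed below the lowest of the bold ones, bold 2. IKZF2, the lymphocyte transcription factor Helios, had 8.12, 4.74, 5.76, 5.60 and 5.79 CPM in bold and 2.98, 2.97, 3.40, 3.22 and 2.79 CPM in shy libraries (1.00, adjusted p 0.177). PIK3R1 DLAgn_00081990, the regulatory subunit of phosphoinositide 3-kinase, had a mean of 73.7 ± 12.1 CPM in bold libraries, against 45.5 ± 3.35 CPM in shy libraries (0.68, adjusted p 0.177), without overlap. Of all tested genes, 222 (1.41%) had every bold library above every shy one, and 1.60% of the tested genes had every bold library below every shy one.

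**Figure D1:**
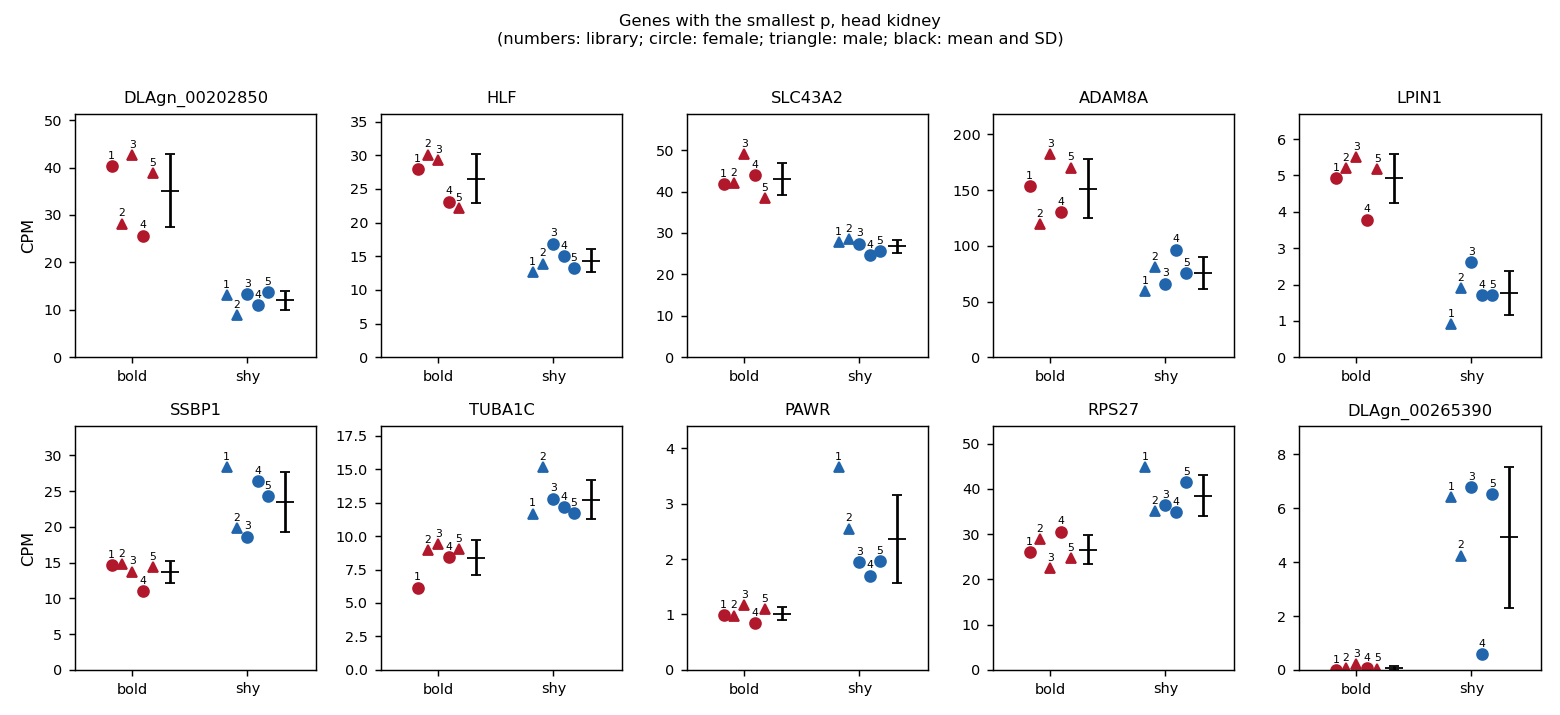
CPM of 10 genes chosen from those of small p in each direction, in the 10 head kidney libraries, bold left of shy in each panel. Library numbers stand at the points, with circles for females and triangles for males. The mean and SD are in black, and the SD bar ends at the axis where it would pass 0. In every panel shown the 5 bold libraries lie on one side of the 5 shy libraries. Other genes of small p are not shown, among them GBP, KIAA1737, NR1D2 and SLC6A12, the last with overlapping groups. Of the genes shown, 1, DLAgn_00202850, passed an adjusted p of 0.05 by edgeR.

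Among the genes with the smallest p and lower levels in bold fish were a mitochondrial protein, a tubulin, a regulator of cell death and a ribosomal protein. SSBP1, which binds single-stranded mitochondrial DNA during its replication, had 14.6, 14.8, 13.7, 11.0 and 14.3 CPM in bold and 28.4, 19.9, 18.6, 26.4 and 24.3 CPM in shy libraries (-0.80, SE 0.143, adjusted p 0.177). The groups did not overlap, and bold 4 was the lowest of all. TUBA1C DLAgn_00125500, 1 of 6 identifiers with this alpha tubulin symbol, had 6.16, 8.97, 9.40, 8.42 and 9.02 CPM in bold and 11.7, 15.2, 12.8, 12.2 and 11.7 CPM in shy libraries (-0.65, SE 0.131, adjusted p 0.209). PAWR, a protein that promotes apoptosis, had 0.985, 0.979, 1.16, 0.848 and 1.09 CPM in bold and 3.67, 2.55, 1.94, 1.70 and 1.97 CPM in shy libraries (-1.27, SE 0.254, adjusted p 0.208). Both genes separated the groups, PAWR at low levels. RPS27 DLAgn_00168300, a protein of the small ribosomal subunit, had 26.0, 28.9, 22.5, 30.6 and 24.7 CPM in bold and 44.9, 35.0, 36.4, 34.8 and 41.6 CPM in shy libraries (-0.53, SE 0.118, adjusted p 0.278). SLC6A12, a transporter of betaine and GABA, had a mean of 4.68 ± 1.23 CPM in bold libraries, against 7.44 ± 1.70 CPM in shy libraries (-0.79, adjusted p 0.208), with overlapping ranges. Of the 12 lower genes with the smallest p, 5 carry no symbol.

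The largest change among these genes was that of DLAgn_00265390, which has no symbol. It had 0, 0.0515, 0.202, 0.0565 and 0.0475 CPM in the bold libraries, against 6.41, 4.25, 6.79, 0.588 and 6.54 CPM in the shy libraries (-5.89, SE 0.803, adjusted p 0.0772). Shy 4 was far below the other shy libraries but still above every bold one. The gene passed the filter on low counts through its shy libraries alone, so its place among these genes rests on that selection. The fitted size depends on counts near 0 in the bold libraries. In 1 fit of all 30 libraries, the same identifier also had lower means in bold fish in the pituitary (-3.54, SE 0.688, adjusted p 0.0523 by edgeR). The brain change was -3.52 (SE 0.646, adjusted p 0.184). Without the pituitary and brain libraries that stood apart, the changes were -2.84 and -3.23. Neither change passed an adjusted p of 0.05 with or without those libraries. With 10 fish kept for 30 libraries, the tissues do not come from separate sets of fish. In pituitary it had 0.0790 to 2.30 CPM in bold and 1.37 to 14.2 CPM in shy libraries, which overlap. In brain it had 0.593 to 1.15 CPM in bold and 6.24 to 14.4 CPM in shy libraries, which do not.

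By edgeR, no gene's bold minus shy change in head kidney differed at an adjusted p of 0.05 from that in pituitary or from that in brain (0 of 20598 genes each, 0.00%). At an unadjusted p under 0.05 there were 1019 genes against pituitary (4.95%) and 1459 against brain (7.08%). DESeq2 was not run on these differences. The labels list behavior and sex in the same sequence in each tissue but name no fish, so the tissue fits have no term for the fish, and their SEs leave out what libraries of 1 fish share. Pituitary shy 1 and shy 2 and brain shy 1 and shy 4 stood apart from their tissue, with a low median rank correlation. Without these 4 libraries, 1 gene differed from pituitary and 2 from brain. DLAgn_00202850 had a log2 change of 0.36 (SE 0.309) in pituitary and of -0.71 (SE 0.312) in brain, and its head kidney change differed from these at unadjusted p-values of 0.00838 and 1.41e-05 in edgeR's fit (adjusted p 0.83 and 0.139). In brain it had 80.6 CPM in shy 4 and at most 22.4 CPM in the other shy libraries. Without the 4 libraries the brain change was 0.02 (SE 0.171), the pituitary change was 0.51 (SE 0.184), and the head kidney change exceeded that in brain by 1.55 (SE 0.222, adjusted p 0.00373 by edgeR) and that in pituitary by 1.06 (SE 0.227, adjusted p 0.352). KIAA1737, also known as CIPC, a repressor that binds the clock protein CLOCK, had a log2 change of 1.70 (SE 0.362) in pituitary and of -0.24 (SE 0.357) in brain. Without the 4 libraries its brain change was of the other sign, 0.24 (SE 0.327), and its pituitary change was 1.93 (SE 0.37). FKBP5, the co-chaperone of the glucocorticoid receptor, had a log2 change of 2.85 (SE 0.698) in pituitary and of -0.19 (SE 0.676) in brain. Without the 4 libraries its changes were 2.48 (SE 0.9) in pituitary and 0.02 (SE 0.798) in brain. Brain shy 4 held the highest shy values of KIAA1737 (92.6 CPM) and FKBP5 (215 CPM).

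The genes were then read by lists of cell types and pathways, chosen with earlier results of these data known. An excess of a list over the share of all genes is therefore a description, not a test. Over all 15741 tested genes the change was positive in 48.0% with a median of -0.01, 914 genes (5.81%) were higher in bold fish at an unadjusted p under 0.05, and 850 (5.40%) were lower. Leaving out bold 1 or shy 1 reduced the lower genes to 563 and 521. Leaving out shy 4 raised the counts to 1126 higher and 1021 lower. For most lists, counts of 5 or fewer genes at an unadjusted p under 0.05 changed by more than 1.5 times when single libraries were left out. None of the list members named below passed an adjusted p of 0.05 by edgeR, so each list is described by its counts and its median. List members counted with higher or lower means are those with a positive or negative fitted log2 change. With sex as a covariate, the sign of this change can differ from that of the plain means. In such bulk samples, fewer cells of a type and less RNA per cell cannot be told apart.

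**Figure D2:**
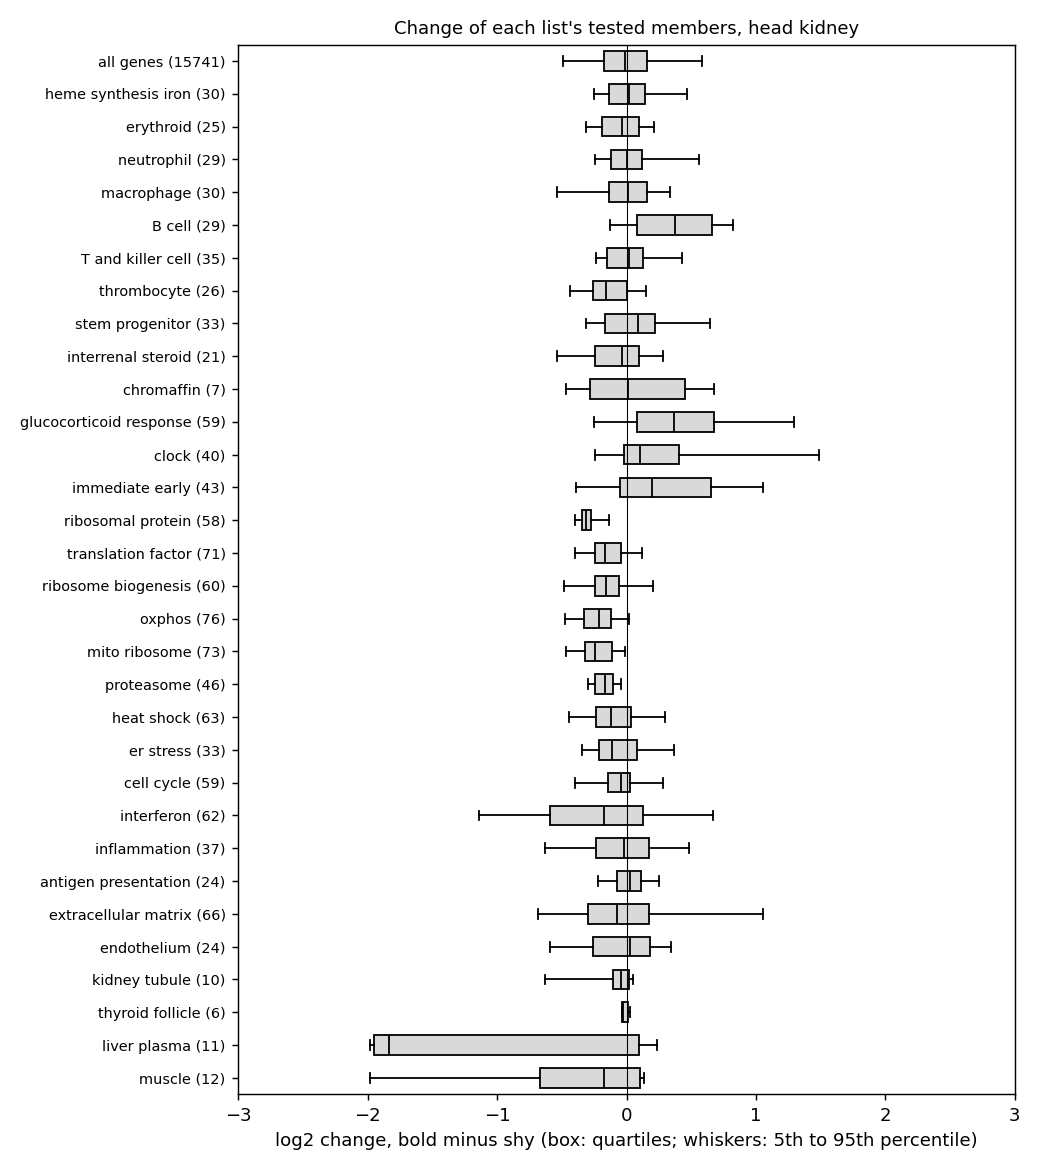
Log2 change, bold minus shy, of the tested members of each list (their number in parentheses), with boxes for the quartiles, a black line for the median and whiskers from the 5th to the 95th percentile. The B cell (0.38) and glucocorticoid response (0.37) medians lie to the right of that of all genes (-0.01), and the ribosomal protein median (-0.31) lies to the left. The liver and plasma list has the widest box.

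Of the blood cell lists, the B cell list had the highest median. Of its 36 identifiers, 29 passed the filter on low counts, and 24 of these had higher means in bold fish (median 0.38). At an unadjusted p under 0.05, 10 were higher and 0 lower, and 3 separated the groups with bold above (background 1.41%). IRF4 DLAgn_00006310, a transcription factor of B cell and plasma cell development, had 59.2, 44.6, 49.6, 49.1 and 81.5 CPM in bold and 39.4, 24.6, 34.0, 30.3 and 43.3 CPM in shy libraries (0.74, SE 0.201, adjusted p 0.338). The second identifier with this symbol, DLAgn_00145530, also had a higher mean in bold fish (0.66), with overlap. PAX5 DLAgn_00181510, which commits progenitors to the B lineage, had 77.7, 72.4, 76.2, 89.1 and 128 CPM in bold and 65.7, 39.8, 62.1, 49.1 and 65.0 CPM in shy libraries (0.66, SE 0.196, adjusted p 0.338). EBF1, which acts with PAX5 in early B cells, had 3.20, 3.14, 3.49, 4.86 and 4.23 CPM in bold and 2.98, 1.59, 2.04, 1.98 and 2.48 CPM in shy libraries (0.83, SE 0.237, adjusted p 0.338). These 3 genes had no overlap between the groups. CD79A, a signalling chain of the B cell receptor, had 123, 147, 148, 173 and 232 CPM in bold and 114, 76.9, 131, 86.0 and 146 CPM in shy libraries (0.59, SE 0.224, adjusted p 0.396). Here shy 5 and shy 3 reached into the bold range, and bold 5 was the highest. Its partner CD79B (0.54), the factor POU2F2 (0.65) and the recombinase RAG2 (0.71) had higher means too, and were chosen after their values were seen.

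The B cell list members with the highest levels had smaller changes. CD22 DLAgn_00057180, an inhibitory receptor of B cells, had a mean of 212 ± 44.1 CPM in bold libraries, against 166 ± 40.7 CPM in shy libraries (0.38, adjusted p 0.501), and CD74B, the invariant chain of MHC class II, had a log2 change of 0.08 (SE 0.127). The immunoglobulin heavy chain IGHM was below the filter in these counts. As a mean deviation over the tested members (log2, from the mean of the 10 libraries), the B cell list stood at 0.17, 0.05, 0.13, 0.17 and 0.25 in bold libraries 1 to 5 and at -0.13, -0.39, -0.21, -0.16 and 0.11 in shy libraries 1 to 5. Shy 5 lay within the bold range and the other shy libraries below it. Leaving out 1 library gave medians of 0.30 to 0.43. In the fit of all 30 libraries 4 members were higher at an unadjusted p under 0.05, beside 588 of all 20598 genes there.

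Red cell genes showed no common direction, and 1 shy library set their level apart. Of 34 erythroid identifiers 25 were tested and 11 had higher means in bold fish (median -0.04, 1 higher and 1 lower at an unadjusted p under 0.05). Of 35 identifiers for heme synthesis and iron, 30 were tested and 16 had higher means (median 0.02). HBAA1 had 176447, 176229, 183543, 140694 and 132322 CPM in bold and 219178, 189927, 263056, 94509 and 262947 CPM in shy libraries (-0.35, SE 0.258, adjusted p 0.65). Shy 4 was the lowest and shy 3 and shy 5 the highest of all, so the bold values lay inside the shy range. HBB1, a beta globin, had a log2 change of -0.35 (SE 0.243) and ALAS2, which starts heme synthesis in red cells, of -0.04 (SE 0.2). GATA1A, the master transcription factor of the red lineage, had a mean of 151 ± 22.4 CPM in bold libraries, against 212 ± 56.8 CPM in shy libraries (-0.47, SE 0.198, adjusted p 0.411). EPOR, the erythropoietin receptor, had a mean of 94.5 ± 19.2 CPM in bold libraries, against 81.5 ± 24.1 CPM in shy libraries (0.21, SE 0.202). BCL11A DLAgn_00010050, a repressor of fetal globin in mammals, had a log2 change of 0.90 (SE 0.292, adjusted p 0.344), and the transferrin receptor TFR1A DLAgn_00211630 of 0.40 (SE 0.175).

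Shy 4 had low red cell and high neutrophil levels together. Its mean deviation was -0.80 for the 3 globins, -0.53 for the erythroid list, -0.51 for heme and iron and 0.41 for neutrophil genes, and the other 9 libraries ranged from -0.45 to 0.54, -0.13 to 0.30, -0.20 to 0.24 and -0.39 to 0.19 for the same lists. Without shy 4, the globin median was -0.50 with 2 of 3 lower at an unadjusted p under 0.05, and 0 with it. The erythroid median was then -0.16 with 5 lower, the heme and iron median -0.11 with 5 lower, and the neutrophil median 0.11 with 7 higher, against 1 with it. Over all tested genes the counts also rose without shy 4, to 1126 higher and 1021 lower, from 914 and 850. What set this library apart was not tested.

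Other white cell lists lay near the level of all genes. Neutrophil genes had a median of 0.01 (15 of 29 tested with higher means, of 40 identifiers). MPX DLAgn_00085240 had 1273, 1619.8, 1932, 1184 and 1448 CPM in bold and 1390.3, 1586, 1008, 1952 and 1192 CPM in shy libraries (-0.00, SE 0.185), with full overlap. CSF3R, the receptor for granulocyte colony-stimulating factor, had a log2 change of -0.09 (SE 0.166), and CEBPA, a transcription factor of granulocyte fate, of 0.56 (SE 0.228, adjusted p 0.41). Macrophage genes had a median of 0.01 (3 higher and 3 lower at an unadjusted p under 0.05, of 30 tested and 36 in the files). MPEG1, a pore-forming protein of macrophages, had a log2 change of 0.12 (SE 0.0955), and the growth factor receptor CSF1RA of 0.04 (SE 0.125). Against these, CD209 DLAgn_00197170, a lectin receptor and 1 of 6 identifiers of that symbol, had 26.5, 20.9, 33.7, 34.6 and 33.3 CPM in bold and 16.0, 17.7, 16.7, 20.7 and 17.3 CPM in shy libraries (0.77, SE 0.151, adjusted p 0.208). Every bold library exceeded every shy library, and bold 2 and shy 4 came within 1 CPM of each other. The other identifiers of that symbol are not described here. Of the 30 tested list members, 2 separated the groups with bold above (background 1.41%). The iron exporter SLC40A1 DLAgn_00047810 (0.46, SE 0.135) also separated the groups, while APOEB, an apolipoprotein E of macrophages, had a mean of 13.5 ± 3.93 CPM in bold libraries, against 21.4 ± 5.46 CPM in shy libraries (-0.73, SE 0.198).

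T and killer cell genes had a median of 0.02 over 35 tested of 44 identifiers, with 3 higher and 0 lower. The median was 0.25 without shy 1, the library with the highest mean deviation for this list (0.32). CD3E, a chain of the T cell receptor complex, had a log2 change of -0.15 (SE 0.225), IL2RB, a receptor chain for interleukins 2 and 15, of 0.63 (SE 0.196, adjusted p 0.338), and TBX21, the T-bet transcription factor, of 0.50 (SE 0.222). Thrombocytes are the nucleated clotting cells of fish. Of 26 tested members of their list (31 in the files), 19 had lower means in bold fish (median -0.16, 3 at an unadjusted p under 0.05, and 0 or 1 without shy 1, shy 5 or any bold library but bold 4). P2RY12, the ADP receptor of clotting cells, had a mean of 12.1 ± 2.01 CPM in bold libraries, against 15.9 ± 6.30 CPM in shy libraries (-0.45, SE 0.169), with shy 1 at 27.0 CPM. Stem and progenitor genes had a median of 0.09 with 5 of 33 tested (38 in the files) higher at an unadjusted p under 0.05, and -0.04 without bold 5. The smallest adjusted p of the list by edgeR, 0.094, was that of HLF DLAgn_00059510, which is also on the clock list. HLF was the only member that separated the groups and the only one that DESeq2 called. RUNX1 DLAgn_00138000 (0.16, SE 0.0899) and MYB (0.09, SE 0.095), transcription factors of blood stem cells, both had changes under 0.2, and SOX4 DLAgn_00063240, a factor of progenitors, had a log2 change of 0.48 (SE 0.153, adjusted p 0.338).

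**Figure D3:**
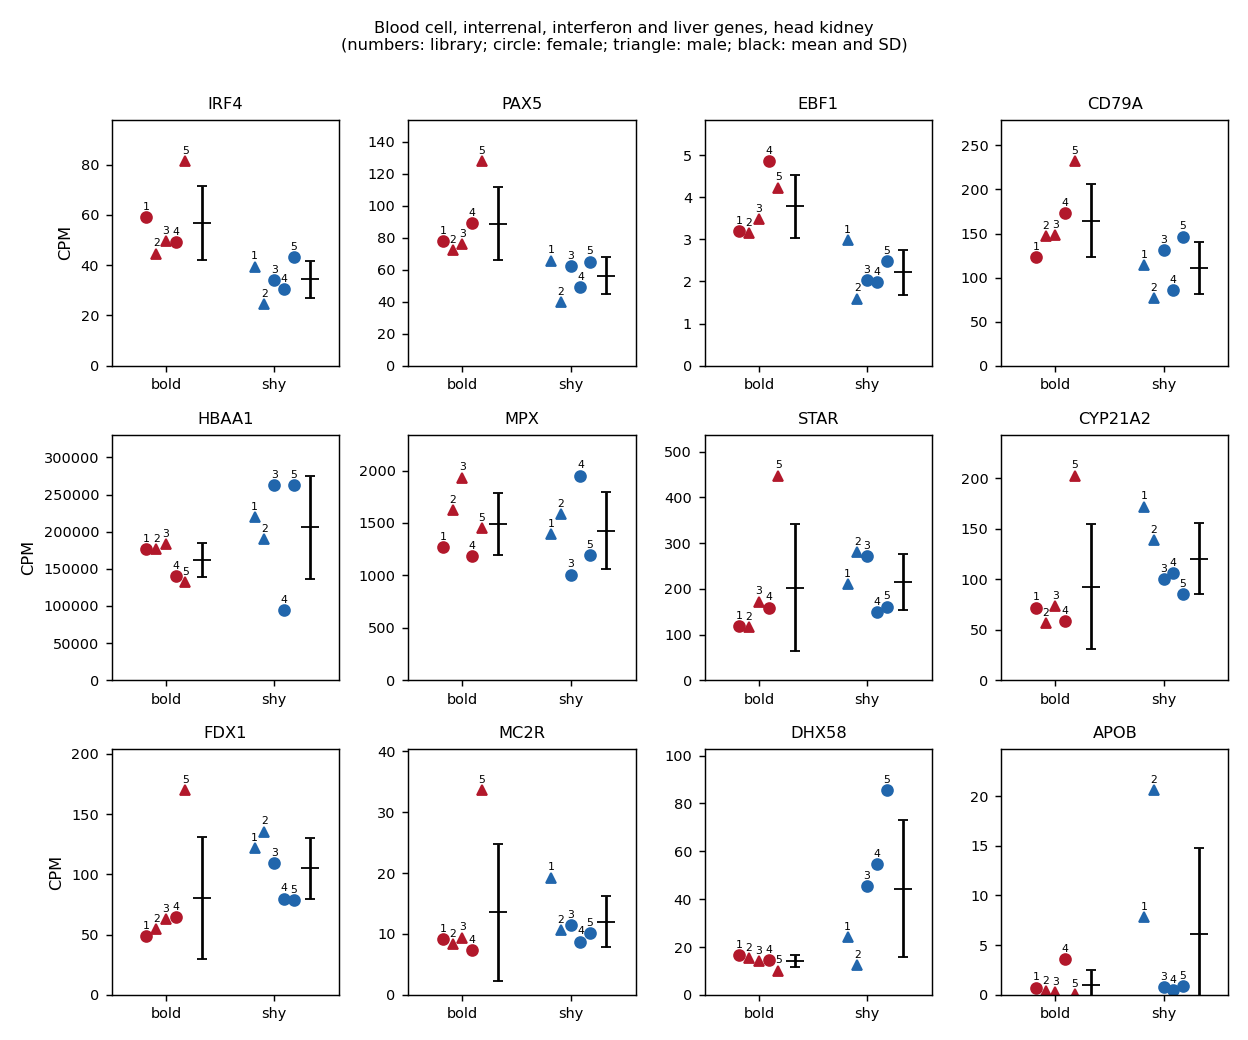
CPM of 12 genes of B cells, red cells, neutrophils, interrenal cells, the interferon response and liver in the 10 head kidney libraries, bold left of shy, with library numbers, circles for females, triangles for males, and the mean and SD in black (the SD bar ends at the axis where it would pass 0). IRF4, PAX5 and EBF1 separate the groups, shy 4 has the lowest HBAA1 (94509 CPM), bold 5 has the highest STAR, CYP21A2, FDX1 and MC2R, and APOB is high in shy 1, shy 2 and bold 4.

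The interrenal genes of cortisol synthesis did not separate bold from shy fish, and 1 bold male held most of their spread. Of 36 identifiers 21 were tested, 9 with a positive fitted change (median -0.04, 1 higher and 1 lower at an unadjusted p under 0.05). STAR DLAgn_00115570 had 118, 116, 172, 159 and 448 CPM in bold and 211, 281, 271, 148 and 161 CPM in shy libraries (-0.24, SE 0.364, adjusted p 0.845). CYP21A2, the steroid 21-hydroxylase, had 72.0, 56.7, 73.8, 58.7 and 203 CPM in bold and 172, 139, 100.2, 106 and 85.1 CPM in shy libraries (-0.53, SE 0.308, adjusted p 0.557). FDX1, the ferredoxin that feeds electrons to the mitochondrial steroid enzymes, had 48.6, 54.8, 62.6, 64.5 and 169.9 CPM in bold and 122, 136, 109.5, 79.9 and 78.9 CPM in shy libraries (-0.54, SE 0.296, adjusted p 0.527). In each of these genes bold 5 was the highest of the 10 libraries and the other bold libraries lay among or below the shy ones. MC2R, the ACTH receptor, had 9.11, 8.35, 9.40, 7.29 and 33.6 CPM in bold and 19.2, 10.6, 11.4, 8.73 and 10.2 CPM in shy libraries (-0.04, SE 0.404), high in bold 5 and, less so, in shy 1.

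Other enzymes of the pathway also had their highest level in bold 5 and were chosen after their values were seen. CYP11A, which cuts the side chain of cholesterol, had 17.7, 18.8, 25.5, 33.4 and 86.1 CPM in bold and 45.6, 49.9, 45.0, 22.0 and 23.8 CPM in shy libraries (-0.18, SE 0.439). CYP11B, which makes cortisol in the last step, had 70.2, 59.6, 76.7, 76.6 and 218 CPM in bold and 139.5, 158, 151, 81.8 and 92.2 CPM in shy libraries (-0.44, SE 0.345). CYP17A2, a steroid 17-hydroxylase of fish, had 13.3, 9.33, 9.60, 13.1 and 43.5 CPM in bold and 39.2, 32.5, 27.5, 13.5 and 11.8 CPM in shy libraries (-0.59, SE 0.465). Among the shy libraries, shy 1, shy 2 and shy 3 were high in these 3 genes and shy 4 and shy 5 were low. Without bold 5, 6 list members were lower at an unadjusted p under 0.05, while the median was -0.05. FDXR, the reductase partner of FDX1, had a log2 change of -0.39 (SE 0.165, adjusted p 0.42), PRKAR1A DLAgn_00099880, a regulatory subunit of protein kinase A, of 0.28 (SE 0.111), and HSD11B2 DLAgn_00250230, which inactivates cortisol, of 0.19 (SE 0.196).

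Chromaffin genes were near the detection limit. Of 36 identifiers 7 were tested, with 0 higher and 0 lower at an unadjusted p under 0.05. TH DLAgn_00165950, tyrosine hydroxylase, had 0, 0.412, 0.960, 3.50 and 3.61 CPM in bold and 0.916, 0.637, 0.485, 2.35 and 1.21 CPM in shy libraries (0.71, SE 0.859). DBH, which makes noradrenaline, ranged over 0.361 to 3.99 CPM in bold and 0.388 to 2.66 CPM in shy libraries (0.22, SE 0.783), and PNMT, which turns noradrenaline into adrenaline, over 0.369 to 2.85 CPM in bold and 0.679 to 5.76 CPM in shy libraries (-0.81, SE 0.7). The SEs are of the order of the changes or larger, and no difference was detectable at this depth.

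Genes that glucocorticoids induce had, for the most part, higher means in bold fish. Of 81 identifiers 59 were tested, 48 had higher and 11 had lower means (median 0.37), and 20 were higher and 1 lower at an unadjusted p under 0.05. Of the tested members 7 separated the groups with bold above (background 1.41%). DESeq2 called 7 of them higher (background 0.454%). The smallest adjusted p of the list by edgeR, 0.0772, was that of the transporter SLC43A2 DLAgn_00028870, described above among the genes with the smallest p. These counts include it, and the list was chosen with earlier results of these data known, so they are no independent support. FKBP5 had 419.5, 205, 665, 114 and 391 CPM in bold and 25.4, 15.4, 137, 24.9 and 36.2 CPM in shy libraries (3.14, SE 0.833, adjusted p 0.338). Only shy 3 reached the lowest bold value, that of bold 4. TSC22D3 DLAgn_00108490, also called GILZ, an anti-inflammatory protein, had 147, 132, 199, 117 and 171 CPM in bold and 86.8, 50.4, 76.3, 101 and 104 CPM in shy libraries (0.88, SE 0.219, adjusted p 0.333), without overlap. SGK1 DLAgn_00203920, a kinase that regulates ion transport, had 73.1, 24.1, 46.2, 29.4 and 56.5 CPM in bold and 19.7, 11.3, 23.9, 27.6 and 26.7 CPM in shy libraries (1.21, SE 0.314, adjusted p 0.338). Bold 2 lay within the shy range and bold 4 just above it.

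Further members of the glucocorticoid list had higher means in bold fish as well. KLF9, a transcription factor, had a mean of 6.50 ± 2.00 CPM in bold libraries, against 3.65 ± 1.13 CPM in shy libraries (0.86, SE 0.286). DDIT4 DLAgn_00103020, an inhibitor of the mTOR kinase, had a mean of 97.0 ± 46.2 CPM in bold libraries, against 40.7 ± 16.8 CPM in shy libraries (1.29, SE 0.452). IRS2 DLAgn_00052160, an adaptor of the insulin receptor, had a mean of 6.03 ± 1.57 CPM in bold libraries, against 3.07 ± 0.626 CPM in shy libraries (0.99, SE 0.242). MKNK2, a kinase of the translation factor eIF4E, had a log2 change of 0.67 (SE 0.195). Of the receptor itself, NR3C1 DLAgn_00110340 had a mean of 15.7 ± 2.68 CPM in bold libraries, against 8.81 ± 3.13 CPM in shy libraries (0.82, SE 0.24), and NR3C1 DLAgn_00045010 had a log2 change of 0.14 (SE 0.111). The mean deviation of the list was 0.38, -0.02, 0.25, -0.05 and 0.39 in bold libraries 1 to 5 and -0.19, -0.37, -0.16, -0.06 and -0.19 in shy libraries 1 to 5. Bold 1, bold 3 and bold 5 were high, and bold 2 and bold 4 were close to shy 4, though the groups did not overlap. Without bold 1 the median was 0.18, and 18 members were higher at an unadjusted p under 0.05. Bold 5 had the highest mean deviation of all libraries for this list and also for the interrenal list (0.40). The order of the other libraries differed between these lists, with bold 1 at -0.12 and bold 3 at -0.07 for the interrenal list. Whether the levels of the lists are related was not tested.

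**Figure D4:**
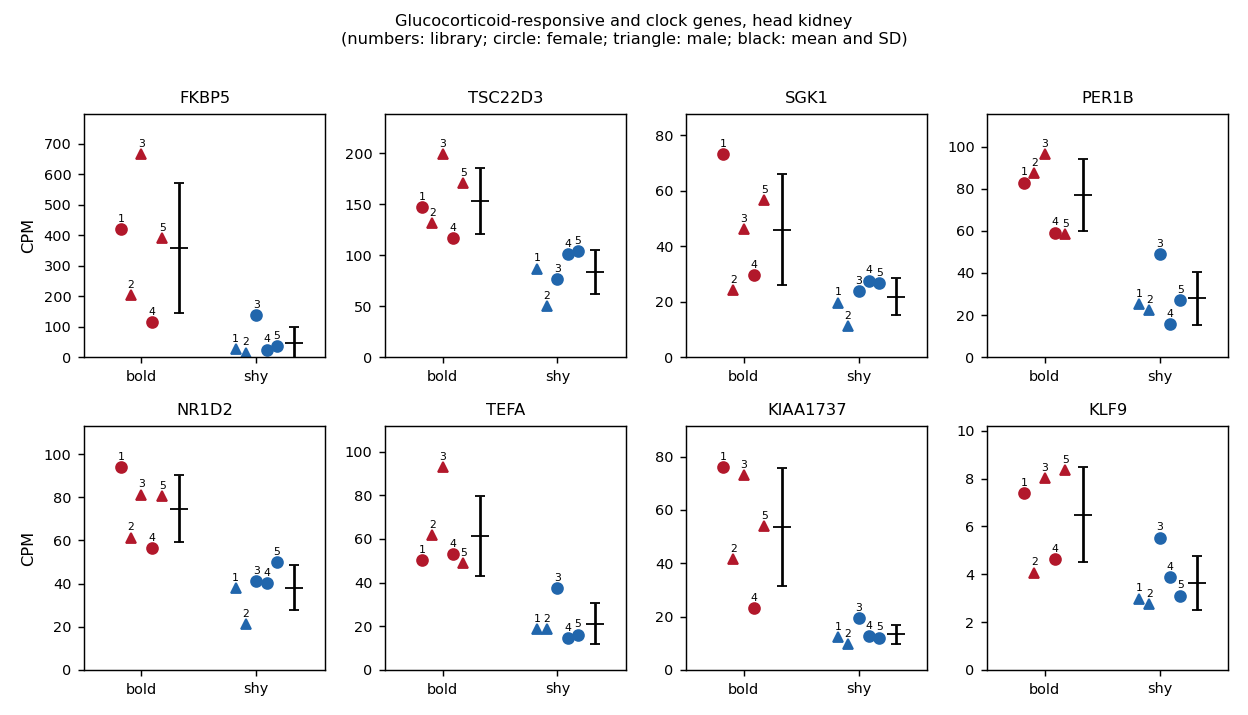
CPM of 8 glucocorticoid-responsive and clock genes in the 10 head kidney libraries, bold left of shy, with library numbers, circles for females, triangles for males, and the mean and SD in black (the SD bar ends at the axis where it would pass 0). TSC22D3, PER1B, NR1D2, TEFA DLAgn_00187840 and KIAA1737 separate the groups, and shy 3 is the highest shy library for FKBP5 (137 CPM), PER1B, TEFA, KIAA1737 and KLF9.

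Several genes of the circadian clock and of its output had higher levels in bold fish, among them members that glucocorticoids also induce. Of 48 identifiers 40 were tested and 27 had higher means (median 0.10), and 9 were higher and 0 lower at an unadjusted p under 0.05. Of the tested members 7 had every bold library above every shy one (background 1.41%). DESeq2 called 6 of them higher (background 0.454%). HLF, described above, is on this list and gave its smallest adjusted p by edgeR (0.094). The lists share members, so their counts are not separate results. Both were chosen with earlier results of these data known. PER1B, a period protein that represses CLOCK and is on both lists, had 83.0, 87.5, 96.4, 59.2 and 58.6 CPM in bold and 25.2, 22.5, 49.0, 15.8 and 27.0 CPM in shy libraries (1.49, SE 0.299, adjusted p 0.252). Bold 4 and bold 5 were the lowest bold libraries and shy 3 the highest shy one. KIAA1737 had 76.2, 41.7, 72.9, 23.1 and 54.0 CPM in bold and 12.4, 9.77, 19.5, 12.8 and 12.1 CPM in shy libraries (2.03, SE 0.343, adjusted p 0.177). NR1D2 DLAgn_00056300, a nuclear receptor known as REV-ERB beta, had 94.2, 61.3, 81.2, 56.3 and 80.5 CPM in bold and 37.8, 21.2, 41.1, 40.4 and 49.9 CPM in shy libraries (1.06, SE 0.209, adjusted p 0.208). TEFA DLAgn_00187840, a PAR bZIP factor like HLF, had 50.5, 61.9, 93.1, 53.2 and 49.1 CPM in bold and 18.8, 18.6, 37.5, 14.6 and 16.1 CPM in shy libraries (1.52, SE 0.301, adjusted p 0.251). The other TEFA identifier, DLAgn_00098990, had a log2 change of 0.74 (SE 0.18), also without overlap.

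The list's mean deviation was 0.19, 0.08, 0.23, 0.04 and 0.23 in bold libraries 1 to 5 and -0.26, -0.10, -0.06, -0.23 and -0.12 in shy libraries 1 to 5. The groups did not overlap here, nor did they for the glucocorticoid, translation factor and mitochondrial ribosome lists. Clock RNA is known to follow the hour of day, and the hour at which each fish was sampled was not part of the labels. The clock median was 0.05 without shy 1 and 0.16 without shy 2.

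Immediate early genes, which respond to stimuli within minutes, varied widely between single libraries. Of 55 identifiers 43 were tested and 29 had higher means in bold fish (median 0.20), with 5 higher and 1 lower at an unadjusted p under 0.05. There were 0 higher without bold 1 or without shy 2, 3 without shy 5 and 18 without bold 4. The mean deviation was 0.70 in bold 1 and -0.28 to 0.21 in the other bold libraries, and -0.40 to 0.27 in the shy libraries. NR4A3, a nuclear receptor without a known hormone, had 10.5, 1.91, 4.65, 1.19 and 11.8 CPM in bold and 2.06, 0.955, 1.07, 1.30 and 2.48 CPM in shy libraries (1.93, SE 0.678, adjusted p 0.379). SIK1, a kinase that restrains cAMP signalling, had 66.2, 9.84, 51.9, 19.2 and 59.9 CPM in bold and 12.4, 7.64, 15.8, 14.0 and 25.6 CPM in shy libraries (1.59, SE 0.574). EGR1 DLAgn_00110040, a zinc finger factor, had a log2 change of 0.71 (SE 0.273).

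Genes of the ribosome and of mitochondria had slightly lower levels in bold fish, over most of their members. Of 58 tested ribosomal protein genes (62 in the files), 57 had lower means (median -0.31) and 44 were lower at an unadjusted p under 0.05. Of these tested genes 25 separated the groups with bold below (background 1.60%). DESeq2 called 4 of them lower (background 0.337%). RPL34, of the large subunit, had 576, 582, 636, 571 and 562 CPM in bold and 794, 665, 756, 688 and 779.7 CPM in shy libraries (-0.33, SE 0.102, adjusted p 0.338). RPL30, also of the large subunit, had 823, 935, 917, 793 and 822 CPM in bold and 1205, 1004, 1041, 987 and 1157 CPM in shy libraries (-0.35, SE 0.107, adjusted p 0.338). RPLP0, of the ribosome stalk, had a log2 change of -0.24 (SE 0.114) with overlap. The mean deviation of the list was -0.19, -0.07, -0.03, -0.17 and -0.29 in bold libraries 1 to 5 and 0.38, -0.08, 0.04, 0.09 and 0.34 in shy libraries 1 to 5. Shy 1 and shy 5 stood highest, and shy 2 lay among the bold libraries. The members lower at an unadjusted p under 0.05 numbered 11 without shy 1, 22 without bold 5, 25 without bold 1, and 26 without bold 4 or without shy 5. In the fit of all 30 libraries 0 were, where fewer genes were lower in all (366 of 20598, against 850 of 15741).

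Translation factors (59 of 71 tested with lower means, median -0.16) and genes of ribosome assembly (51 of 60, median -0.16) had the same direction. At an unadjusted p under 0.05, 17 translation factors were lower, with 5 lower without shy 1 and 7 to 10 without bold 1, bold 2, bold 4, bold 5 or shy 5. EEF1A1L1, an elongation factor, had a log2 change of -0.43 (SE 0.138), and DKC1, which modifies ribosomal RNA, of -0.44 (SE 0.115, adjusted p 0.333), DKC1 without overlap. For oxidative phosphorylation 70 of 76 tested genes had lower means (median -0.21) and 30 were lower at an unadjusted p under 0.05. Of these tested genes 13 separated the groups with bold below (background 1.60%). NDUFV2, a subunit of complex I, had 24.6, 28.4, 27.1, 28.9 and 26.7 CPM in bold and 37.1, 33.3, 30.2, 37.0 and 37.9 CPM in shy libraries (-0.37, SE 0.0984, adjusted p 0.338). The groups did not overlap. UQCRQ, of complex III, had a log2 change of -0.34 (SE 0.0942), and ATP5S, a factor of the ATP synthase, had a mean of 10.8 ± 2.22 CPM in bold libraries, against 21.6 ± 6.80 CPM in shy libraries (-0.95, SE 0.239), both with overlap. Of 73 mitochondrial ribosome genes 70 had lower means (median -0.25) and 23 were lower at an unadjusted p under 0.05, among them MRPL4 (-0.53, SE 0.135, no overlap) and MRPS12 (-0.46, SE 0.125). Without bold 1 the lower genes were 16 for oxidative phosphorylation and 11 for the mitochondrial ribosome, and without bold 4 they were 18 and 14. In the fit of all 30 libraries the lower genes were 1 for oxidative phosphorylation, 2 for the mitochondrial ribosome and 0 for translation factors. Over all 20598 genes of that fit 366 were lower. Proteasome genes had a median of -0.16 (43 of 46 with lower means, 6 at an unadjusted p under 0.05 and 0 to 3 with any library left out but bold 2, shy 2 or shy 3). Shy 4 had the highest mean deviation for the mitochondrial ribosome (0.36), ribosome assembly (0.35), the proteasome (0.39) and genes of endoplasmic reticulum stress (0.57).

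**Figure D5:**
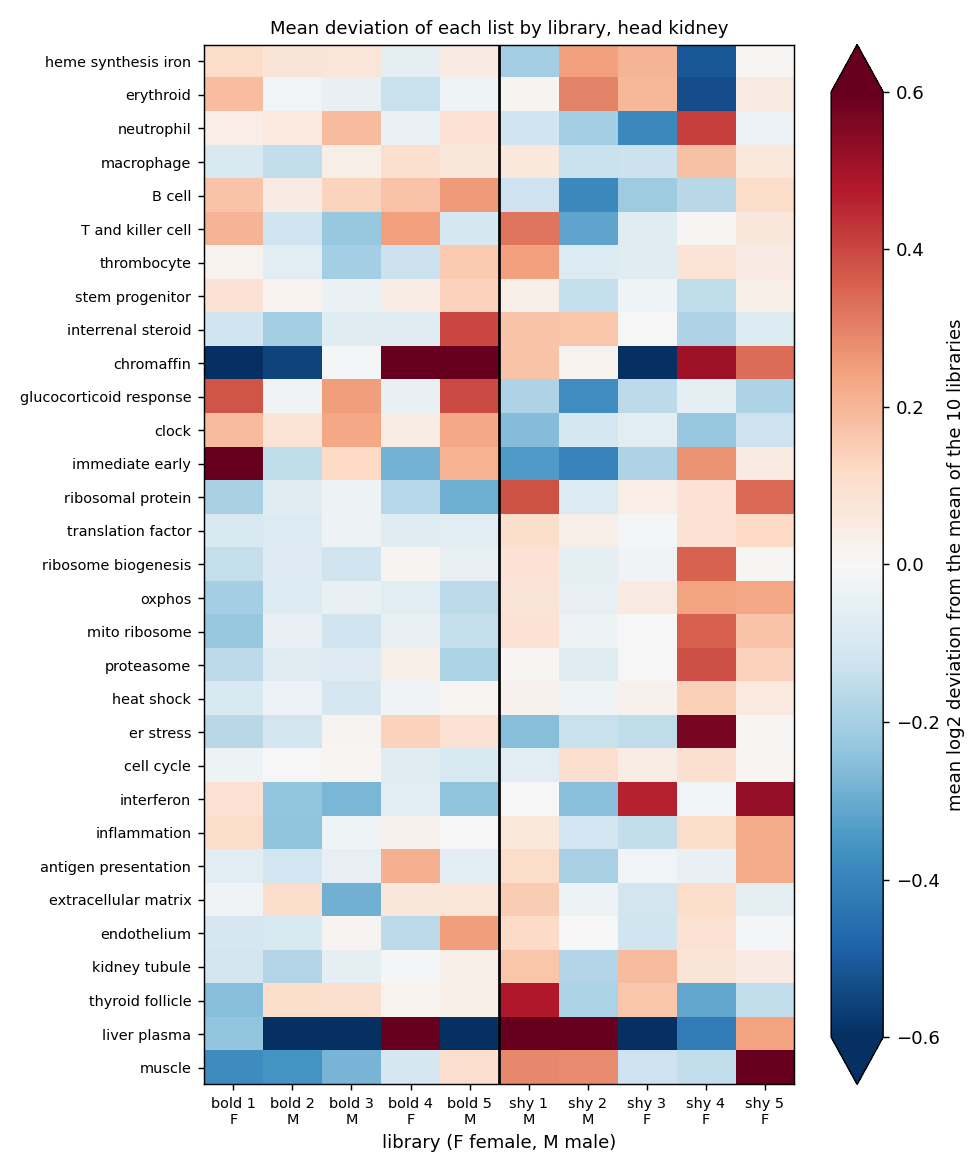
Mean log2 deviation of each list from the mean of the 10 head kidney libraries, with bold libraries left of the black line, shy libraries right of it, and lists down the page (red above and blue below the mean, colours end at -0.6 and 0.6). The clock list is positive in all 5 bold and negative in all 5 shy libraries, interrenal genes are highest in bold 5 (0.40), immediate early genes in bold 1 (0.70), erythroid genes are lowest in shy 4 (-0.53), and liver and plasma genes are high in bold 4, shy 1 and shy 2.

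Interferon-stimulated genes had mostly lower means in bold fish, and their highest levels were in shy 3 and shy 5, both females. Of 62 tested genes (74 in the files), 42 had lower means (median -0.17), and 20 were lower and 3 higher at an unadjusted p under 0.05. Only 1 separated the groups with bold below, which is near the share over all genes (background 1.60%). DHX58, a sensor of viral RNA, had 16.5, 15.4, 14.2, 14.5 and 10.1 CPM in bold and 24.1, 12.4, 45.6, 54.7 and 85.6 CPM in shy libraries (-1.25, SE 0.363, adjusted p 0.338). All shy libraries but shy 2 were above every bold library, and the 3 shy females were the highest. HERC6, an interferon-induced ubiquitin ligase, had 116, 70.5, 72.8, 83.4 and 66.4 CPM in bold and 129.7, 67.3, 227, 134 and 314 CPM in shy libraries (-0.83, SE 0.267). IFI44 DLAgn_00147260 had a mean of 80.8 ± 8.28 CPM in bold libraries, against 147 ± 82.9 CPM in shy libraries (-0.61, SE 0.27), and B2M, the light chain of MHC class I, had a log2 change of 0.01 (SE 0.172). The list's mean deviation was 0.46 in shy 3 and 0.53 in shy 5, and -0.27 to 0.09 in the other 8 libraries. Without bold 4 there were 8 lower genes and without shy 1 10, and without shy 3 there were 7 higher ones. The exception with the smallest p was GBP, with 38.9, 27.8, 49.1, 31.8 and 38.6 CPM in bold and 15.3, 16.1, 19.5, 23.5 and 20.4 CPM in shy libraries (1.00, SE 0.173, adjusted p 0.177), every bold library above every shy one, while TRIM25 DLAgn_00090900, a ubiquitin ligase of RNA sensing, had a lower mean in bold fish (-0.79, SE 0.167, adjusted p 0.252).

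Inflammation genes (median -0.02, 2 higher and 2 lower of 37 at an unadjusted p under 0.05) and antigen presentation genes (median 0.03, 2 higher and 0 lower of 24) lay near the level of all genes. IL10RA, a receptor chain for the anti-inflammatory interleukin 10, had a mean of 60.6 ± 13.5 CPM in bold libraries, against 37.2 ± 8.06 CPM in shy libraries (0.73, SE 0.192, adjusted p 0.338). CXCR4 DLAgn_00049010, the chemokine receptor that holds blood cells in their niche, had a log2 change of 0.41 (SE 0.173), and STAT3 DLAgn_00092610, a transcription factor of cytokine signalling, of -0.57 (SE 0.213). Cell cycle genes had a median of -0.05 with 1 higher and 6 lower of 59. With 1 library left out, the higher ones were 0 to 4 and the lower ones 4 to 8. Among the lower genes were CDK2, a kinase of DNA replication (-0.40, SE 0.103, adjusted p 0.333), and PCNA, the replication clamp (-0.32, SE 0.122). MKI67, a marker of dividing cells, had a log2 change of 0.02 (SE 0.14). Chaperone genes had a median of -0.12 (3 higher, 7 lower of 63), and the collagen chaperone HSP47 DLAgn_00039080 separated the groups (-0.45, SE 0.149). The lower chaperone genes were 3 without bold 1 or bold 4, and the higher ones 0 without shy 1 or shy 4 and 1 without bold 1, bold 2 or bold 5. For endoplasmic reticulum stress the median was -0.11, and it was 0.10 without shy 4 and 0.03 without bold 1. Of its members, HERPUD1, which helps to clear misfolded proteins, had a log2 change of 0.32 (SE 0.121) and PDIA3 DLAgn_00171450, a disulfide isomerase, of -0.12 (SE 0.258).

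Genes of the supporting tissue had changes in both directions. Of 66 matrix genes 4 were higher and 6 lower at an unadjusted p under 0.05 (median -0.07). The lower genes were 10 without bold 5, 3 without bold 1, bold 3 or shy 2, and 2 without shy 4. ELNA, an elastin, had 91.1, 64.1, 33.0, 73.9 and 63.4 CPM in bold and 36.7, 27.7, 33.0, 30.7 and 27.6 CPM in shy libraries (1.10, SE 0.208, adjusted p 0.192). Bold 3 overlapped with the shy libraries and the other bold libraries were above them. Endothelial genes had a median of 0.03 over 24 tested, with 2 higher and 4 lower at an unadjusted p under 0.05. The lower ones were 2 without bold 1, bold 2, bold 3 or shy 1. SOX17, a transcription factor of arteries and of blood-forming endothelium, had 1.11, 0.618, 0.758, 0.452 and 0.997 CPM in bold and 2.06, 1.91, 1.16, 1.61 and 1.71 CPM in shy libraries (-1.18, SE 0.325, adjusted p 0.338). The related SOX7 had a log2 change of -0.81 (SE 0.26), and LYVE1, a hyaluronan receptor of lymphatic and sinus endothelium, of 0.64 (SE 0.194).

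Markers of tissues beside the head kidney were low, and those of liver were higher in libraries of both groups, shy 1, shy 2 and bold 4. Of 48 liver and plasma protein genes 11 were tested, 5 with higher and 6 with lower means in bold fish (median -1.83, 0 at an unadjusted p under 0.05). APOB DLAgn_00071210, the main protein of liver lipoproteins, had 0.739, 0.412, 0.303, 3.62 and 0.0475 CPM in bold and 7.79, 20.6, 0.776, 0.465 and 0.889 CPM in shy libraries (-1.95, SE 1.63). FABP10A DLAgn_00057470, a liver fatty acid carrier, had 1.97, 0.206, 0.859, 4.52 and 0.380 CPM in bold and 13.3, 28.2, 0.0970, 0.650 and 2.86 CPM in shy libraries (-1.95, SE 1.6). FGB, a fibrinogen chain, had 0.369, 0.258, 0, 2.32 and 0 CPM in bold and 4.81, 8.60, 0.291, 0.588 and 0.889 CPM in shy libraries (-2.04, SE 1.5). The list was high in shy 1 and shy 2, both males (mean deviation 1.59 and 2.00), and in bold 4, a female (1.12), and ranged from -1.16 to 0.24 elsewhere. The median was -0.85 to -0.94 without bold 2, bold 3, bold 5 or shy 2, and -4.00 without bold 4, with 7 genes lower at an unadjusted p under 0.05. Of 12 tested muscle genes (75 in the files) 2 were lower (median -0.17), and the actin ACTA1A had 24.9 CPM in shy 5 and at most 1.49 CPM in the other libraries. Kidney tubule genes (10 of 52 tested, median -0.04) and thyroid follicle genes (6 of 18, median -0.03) gave 0 genes at an unadjusted p under 0.05 in either direction. Of the adipose, intestine and pancreas, neuron and gonad lists, 12, 4, 5 and 2 members were tested, and 1 adipose gene was higher at an unadjusted p under 0.05. The part of neighbouring tissue in the results above was not tested.

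The bold minus shy change differed between males and females at an adjusted p of 0.05 for 3 of 15741 genes (0.0191%), and at an unadjusted p under 0.05 for 587 (3.73%). The 3 were APOC1, DLAgn_00082150 and DLAgn_00005730, all high in shy 1, shy 2 and bold 4 like the liver list. APOC1, a small apolipoprotein of the liver, had 0.616, 0.258, 0.152, 3.28 and 0.142 CPM in bold and 9.39, 12.5, 0.194, 0.743 and 0.698 CPM in shy libraries, and its change was -5.85 in males and 1.81 in females (difference -7.66, SE 0.918, adjusted p 0.0481). The difference was -5.96 for DLAgn_00082150 and -8.79 for DLAgn_00005730, which carry no symbol. Levels of 2 of these genes were far higher in brain. There DLAgn_00005730 had means of 860 CPM in bold and 754 CPM in shy libraries, and APOC1 of 177 and 157 CPM. DLAgn_00082150 had at most 0.123 CPM in brain. Leaving out 1 library gave 0 to 17 genes, 17 without bold 2, 9 without bold 1, 1 without shy 5, 2 without shy 3 and 0 without any other. With 2 bold females and 2 shy males, 1 fish can set such a value.

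Each sex was also compared alone. For B cell genes the median was 0.41 in males and 0.29 in females, and for glucocorticoid-responsive genes 0.33 in males and 0.24 in females. FKBP5 had a log2 change of 4.41 in males and 2.02 in females, and TSC22D3 DLAgn_00108490 had a log2 change of 1.30 in males and 0.49 in females. Interferon-stimulated genes had a median of -0.10 in males and -0.24 in females. At an unadjusted p under 0.05, 3 were lower in males alone and 20 in females alone. In females alone 353 of all 16095 genes were lower. The counts come from separate fits of few fish and were not tested against each other. DHX58 had a log2 change of -0.43 in males and -2.00 in females, a difference of 1.57 (SE 0.473, adjusted p 0.999 by edgeR). Oxidative phosphorylation genes had a median of -0.10 in males and -0.33 in females. None of these differences between the sexes passed the adjusted threshold for a single gene.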

How the data were processed

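Poly(A) RNA was sequenced with a stranded kit as single 50 nt reads on 3 HiSeq lanes, per the labels' protocols. The authors deposited raw whole-number counts of reads per gene, for which featureCounts 1.6.2, SAMtools 1.5, TopHat2 2.1.1 with Bowtie2 2.2.9, bcl2fastq 2.20 and FastQC are named, per the submitters' processing notes. The genome build is not given in the sources used here, nor is any strand setting, so reads of overlapping or antisense genes and of near-identical paralogs may be shared. The 1 deposited table holds 26719 identifiers, of which 5479 carry no symbol. Symbols are those of the table, since 0 identifiers matched the reference gene table, and no sequence is printed.

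Columns were tied to samples by title, and groups are the labels' behavior. Replicate numbers follow accession order and were not used to pair libraries. Of 45 pairs of head kidney libraries 0 were identical. The depth is given with the results. Counting error grows toward low CPM, and at a given CPM it is largest in shy 1, the smallest library (4667992 counts).

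Bold was compared with shy in the 10 head kidney libraries by edgeR 4.0.16 (R 4.3.3; quasi-likelihood, robust, TMM, filterByExpr with a minimum count of 10, sex as covariate), which left 15741 genes. The Benjamini-Hochberg adjustment ran over all of them, with a threshold of 0.05. Tests are two-sided. The SE is the absolute log2 change divided by the square root of F. The sex difference is the interaction term. Tissue differences came from 1 fit of all 30 libraries. List deviations use log2 CPM with a prior count of 2. The code was tested on simulated counts. DESeq2 1.42.0, limma 3.58.1 (voom), other factors and filters, each sex alone and leaving out each library were alternatives.

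The genes and the 36 lists were chosen with earlier results of these data known. Genes named are those past the threshold, the 12 of smallest p per direction, up to 4 members per list with the smallest p and up to 3 with the highest level, a fixed set of lineage, interrenal and glucocorticoid genes, and at most 5 in each direction for the sex and tissue differences. Any other is said to be chosen after its values were seen.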

Additional observations from a re-analysis of the deposited data

Results flagged for a closer look

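In 322 sets of 5 libraries of 1 group, for a named gene or a list, 32 had 1 library far from the other 4 by Dixon's test at its 95% limit. For independent, normally distributed values chance gives about 1 in 20. These sets are not independent, since related genes share the same libraries, so the 32 cannot be set against that share. Bold 5, a male, was far above the other bold libraries for genes of cortisol synthesis, with 448 CPM of STAR DLAgn_00115570 (115.5 to 172 CPM in the others), 86.1 CPM of CYP11A, 218 CPM of CYP11B, 43.5 CPM of CYP17A2, 203 CPM of CYP21A2, 169.9 CPM of FDX1 and 33.6 CPM of MC2R, and for the interrenal list (mean deviation 0.40). Shy 1 had 19.2 CPM of MC2R, above the other shy libraries.

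Bold 4, a female, was far above the other bold libraries for the liver genes APOB DLAgn_00071210 (3.62 CPM) and FGB (2.32 CPM). It was also far above them for APOC1 (3.28 CPM) and DLAgn_00005730 (9.50 CPM). The bold minus shy change differed between males and females for APOC1 (-7.66), DLAgn_00082150 (-5.96) and DLAgn_00005730 (-8.79), by the interaction term at an adjusted p under 0.05 in edgeR. Shy 4 was far below the other shy libraries for the globins (-0.80). Shy 5 had 24.9 CPM of the muscle actin ACTA1A.

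Among single genes, bold 1 was high for EPOR (129 CPM) and RUNX1 DLAgn_00138000 (65.0 CPM), and bold 5 for RAG2 (29.1 CPM) and for ZNFL1 (43.9 CPM), 1 of the 12 genes with the smallest p among those higher in bold fish. Bold 4 was high for SLC40A1 DLAgn_00047810 (61.0 CPM) and low for SSBP1 (11.0 CPM). Bold 3 was high for DLAgn_00265390 (0.202 CPM) and RPL34 (636 CPM), and bold 2 was low for IL2RB (12.2 CPM). Of the shy libraries, shy 1 was high for P2RY12 (27.0 CPM), shy 3 for FKBP5 (137 CPM) and TEFA DLAgn_00187840 (37.5 CPM), and shy 5 for RAG2 (18.5 CPM) and RUNX1 DLAgn_00138000 (53.9 CPM), while shy 2 was low for UQCRQ (38.9 CPM). Of the lists, antigen presentation was high in bold 4 (0.21) and the thyroid follicle list low in bold 1 (-0.26).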

How the results depend on the processing

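The number of genes past the threshold between bold and shy fish was 1, and it was 122 by DESeq2, 15 with all 30 libraries in 1 fit, 32 in males alone, 12 in females alone, 4 with no covariate, 4 at an adjusted p under 0.10, 0 with non-robust shrinkage and 0 by voom with quality weights. Leaving out 1 library gave 0 to 5 genes, with 5 without bold 4, 4 without shy 3, 2 without bold 3, and 1 without shy 2 or shy 4, which was then another gene. For the sex difference, 3 genes passed, 21 by DESeq2 and 0 to 17 with 1 library left out. Without the pituitary and brain libraries that stand apart, 1 gene differed between head kidney and pituitary and 2 between head kidney and brain. These counts rest on few fish, and the cause of the differences between tools was not tested.

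List medians that moved by more than the spread were as follows. In males alone they were -0.10 for oxidative phosphorylation, -0.059 for chaperones, 0.14 for endoplasmic reticulum stress, -5.83 for liver and 0.22 for gonad. In females alone they were -0.33 for oxidative phosphorylation, -0.19 for chaperones, -0.10 for the cell cycle, -0.16 for kidney tubule, 1.23 for liver and 0.50 for neuron. With all 30 libraries in 1 fit the medians were -0.10 for translation factors, 0.079 for the matrix and -0.64 for muscle. That fit tested 73, 108 and 38 members of these lists, against 71, 66 and 12. With no filter, which adds members of low counts, the medians were -1.61 for muscle, -0.52 for intestine and pancreas and -0.70 for gonad. With at least 1 CPM in 5 libraries the median was 0.094 for liver, over 6 members against 11. Leaving out 1 library gave medians of -0.068 to 0.25 for T and killer cells, -0.036 to 0.11 for stem cells, 0.18 to 0.41 for glucocorticoid response, -0.18 to -0.11 for translation factors, -0.11 to -0.010 for the cell cycle and -4.00 to -0.85 for liver.

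For single genes a direction was counted where the change was at least its SE. In females alone it was reversed for DLAgn_00082150 (1.60), APOC1 (1.81), APOB DLAgn_00071210 (1.71), FABP10A DLAgn_00057470 (1.44) and FGB (1.23), and in males alone for EPOR (-0.20). Leaving the identifiers with the most counts out of library sizes, chosen after seeing the data, gave 1 gene, as did leaving out the globins. No paired analysis was possible because the replicate numbers follow accession order and tie no bold fish to a shy one. Depth limits the chromaffin, liver and muscle genes near 1 CPM.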
